A study of Mus musculus with 6 samples.

Results

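The NK cell receptors described here are 7 genes, Klrk1, Klrc1, Klrd1, Klrb1c, Ncr1, Cd226 and Cd96, among the 21760 gene symbols of the deposited table. They were picked by symbol, with their levels in these same libraries already known, so their levels and fold changes are given as a description and without a test. All 7 passed the filter on low counts and were among the 15560 genes tested. The libraries held RNA of macrophages taken by cell sorting out of MC38 tumours, which derive from a mouse colon carcinoma line and were grown under the skin of C57BL6 mice for 16 days. The tumour cells were either knocked out (KO) for Xkr8, a phosphatidylserine scramblase of dying cells, or wild type (WT), and the hosts received no further treatment. There were 2 mice with tumours of KO clone 1, 2 mice with tumours of KO clone 2 and 2 mice with WT tumours, with 1 library per mouse. The knockout is in the tumour, so the host macrophages were not knocked out in any group, and mice with the same clone are not independent copies of the knockout. The sources used here give neither the age and sex of the hosts nor the markers by which the macrophages were gated.

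Natural killer (NK) cells weigh signals from activating and inhibitory receptors on their surface when they meet a target cell. Many of these receptors are C-type lectins encoded in the NK gene complex, and others belong to the immunoglobulin superfamily. Activated CD8 T cells and some innate-like lymphocytes carry several of the same receptors. NKG2D and DNAM-1 have also been described on myeloid cells, and macrophages can make ligands of these receptors.

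The libraries held 37090034 to 40022755 counts, except that of WT mouse 2, which held 20038047. In WT mouse 2 the ribosomal RNA precursor Rn45s took 24.6% of the counts, against 1.46% to 7.12% in the other 5 libraries. Expression is given in counts-per-million (CPM) on library sizes scaled by TMM, and 3 counts were worth 0.206 CPM in WT mouse 2 and 0.0659 CPM in WT mouse 1. Xkr8 itself measured 4.70 and 4.14 CPM with KO clone 1, 6.97 and 6.16 CPM with KO clone 2, and 6.90 and 6.05 CPM with WT. Because these are host cells, that level does not check the knockout. The 11 macrophage markers summed to 11289 to 13136 CPM in the KO libraries and to 10552 and 13506 CPM in the WT libraries, so the defining transcripts of the labelled cell type were abundant in every library.

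All 7 receptor genes were higher in each of the 4 KO libraries than in either WT library. Of all genes tested, 12.9% showed that order. Fold changes of KO over WT had a median of 3.68 on the log2 scale for the 7 genes, against 0.00 for all genes tested, and ran between 1.11 for Klrb1c and 3.99 for Cd226. In 6 of the 7 the log2 fold change was at least 2, as in 1.45% of all genes. Klrk1 and Cd226 passed an adjusted p of 0.05 in edgeR's quasi-likelihood test of KO against WT, where 0.129% of all genes passed as higher. Without WT mouse 2 Klrk1 alone passed, as did 0.116% of all genes in the higher direction, and without WT mouse 1 all but Klrb1c passed, as did 22.3% of all genes. None of the 7 passed without KO clone 1 mouse 1, without either clone 2 library, or in a fit of 3 groups that set the mean of the clones against WT, settings in which 0.00643% of all genes passed as higher. Since the genes were chosen on this contrast, nothing is read from these counts. In bulk RNA, more cells of a type and more RNA per cell cannot be told apart, and this applies to every difference below.

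**Figure D1:**
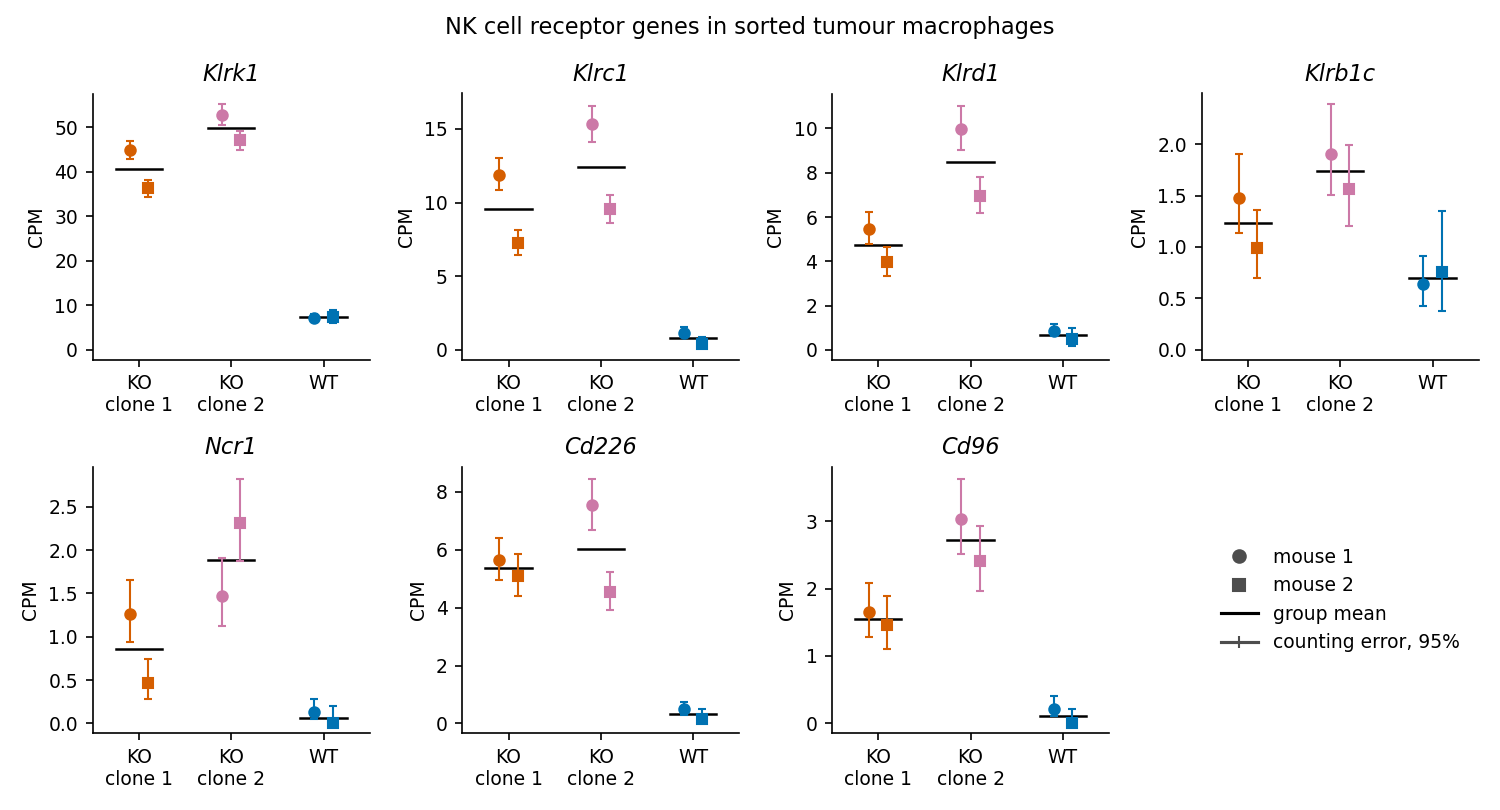
Level of each receptor gene in CPM (y axis, linear, own scale per gene) in the 2 libraries of KO clone 1, KO clone 2 and WT. Circles are mouse 1 and squares mouse 2, black lines are group means, and bars are exact 95% Poisson intervals for counting error, with the 3-count limit where no count was found. Klrk1 lies at 36.3 to 52.9 CPM in KO libraries and at 7.25 and 7.43 CPM in WT libraries, and no KO point of any gene lies below a WT point.

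Klrk1 encodes NKG2D, an activating receptor that recognises stress-induced relatives of MHC class I and signals through the adaptors Hcst (DAP10) and Tyrobp (DAP12). It lies on mouse chromosome 6 (GRCm38 chr6:129610323-129623864, minus strand, GENCODE M21). Klrk1 measured 44.8 and 36.3 CPM with KO clone 1, 52.9 and 47.1 CPM with KO clone 2, and 7.25 and 7.43 CPM with WT. The lowest KO library was 4.89 times the highest WT library, and the WT libraries lay close together although their depths differed. The mean was 45.3 ± 6.86 CPM in KO (SD, n = 4) and 7.34 ± 0.129 CPM in WT (SD, n = 2), a log2 fold change of 2.63 ± 0.23 (SE). Klrk1 was the most abundant of the 7 receptors. It made up 57.4% to 65.4% of their summed CPM in KO libraries, and 67.5% and 80.6% in WT libraries.

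Klrc1 encodes NKG2A, an inhibitory receptor that pairs with CD94, the product of Klrd1, to recognise the non-classical MHC molecule Qa-1, encoded by H2-T23. Klrc1 (chr6:129666015-129678973, minus strand) measured 11.9 and 7.27 CPM with KO clone 1, 15.3 and 9.55 CPM with KO clone 2, and 1.16 and 0.413 CPM with WT. Its KO mean of 11.01 ± 3.44 CPM (SD, n = 4) stood against a WT mean of 0.788 ± 0.531 CPM (SD, n = 2), a log2 fold change of 3.68 ± 0.50 (SE). Mouse 1 of each clone was above mouse 2 of either clone, so for Klrc1 the clones overlapped.

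Klrd1 (chr6:129591782-129598775, plus strand) lies between Klrk1 and the Klrb1 genes in the same complex. It measured 5.48 and 3.96 CPM with KO clone 1, 9.995 and 6.95 CPM with KO clone 2, and 0.857 and 0.482 CPM with WT. Both clone 2 libraries were above both clone 1 libraries, and all 4 were above WT. The means were 6.60 ± 2.57 CPM in KO (SD, n = 4) and 0.669 ± 0.265 CPM in WT (SD, n = 2), a log2 fold change of 3.22 ± 0.50 (SE). The ratio of Klrc1 to Klrd1 in CPM was 1.37 to 2.17 in KO libraries and 0.857 and 1.36 in WT libraries, where it rests on 6 counts of Klrc1 and 7 counts of Klrd1 in WT mouse 2. Klrc2 and Klrc3, close relatives of Klrc1 whose activating products also pair with CD94, were near or at 0. Klrc2 had 0.104 to 0.361 CPM in KO libraries and 0 counts in both WT libraries. Klrc3 was seen in KO clone 2 mouse 2 alone, at 0.168 CPM. The sources used here do not say how reads shared among such relatives were divided.

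Klrb1c encodes the antigen NK1.1, the standard surface marker of NK cells in C57BL/6 mice and an activating receptor. Klrb1c (chr6:128778485-128789215, minus strand) measured 1.48 and 0.990 CPM with KO clone 1, 1.91 and 1.56 CPM with KO clone 2, and 0.637 and 0.757 CPM with WT. It had the smallest difference of the 7, with the lowest KO library 1.31 times the highest WT library and a log2 fold change of 1.11 ± 0.41 (SE). KO averaged 1.48 ± 0.379 CPM (SD, n = 4) and WT averaged 0.697 ± 0.0847 CPM (SD, n = 2). The exact 95% Poisson interval of KO clone 1 mouse 2, 0.7003 to 1.36 CPM, overlapped those of both WT libraries, which were 0.427 to 0.915 and 0.378 to 1.35 CPM. Such intervals cover counting error only. Relative to Klrk1, Klrb1c stood at 0.0273 to 0.0361 in KO libraries and at 0.0879 and 0.102 in WT libraries. Its annotation overlaps the gene model Gm44511 on the same strand, and its relative Klrb1b was far more abundant at 28.9 to 56.6 CPM in KO libraries and 49.1 and 41.8 CPM in WT libraries, so its small count is uncertain.

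Ncr1 encodes NKp46, an activating receptor of the immunoglobulin superfamily that is close to exclusive to NK cells and innate lymphoid cells. Ncr1 (chr7:4337724-4345164, plus strand) measured 1.26 and 0.469 CPM with KO clone 1, 1.48 and 2.31 CPM with KO clone 2, and 0.132 and 0 CPM with WT. These are 52 and 18 counts with KO clone 1, 58 and 96 counts with KO clone 2, and 6 and 0 counts with WT. It had the widest spread among KO libraries, with a highest to lowest ratio of 4.92. The mean was 1.38 ± 0.756 CPM in KO (SD, n = 4) and 0.0659 ± 0.0932 CPM in WT (SD, n = 2), and the log2 fold change of 3.88 ± 0.96 (SE) rests on those 6 WT counts. WT mouse 2, with 0 counts, allows a level of up to 0.206 CPM.

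Cd226 encodes DNAM-1, an activating receptor of the immunoglobulin superfamily that binds Pvr (CD155) and Nectin2 (CD112), and it lies on chromosome 18. Cd226 measured 5.65 and 5.08 CPM with KO clone 1, 7.53 and 4.54 CPM with KO clone 2, and 0.483 and 0.138 CPM with WT. Its lowest KO library was 9.41 times its highest WT library, the widest gap of the 7 genes, and the clones overlapped. The KO mean was 5.70 ± 1.30 CPM (SD, n = 4) and the WT mean 0.310 ± 0.244 CPM (SD, n = 2), a log2 fold change of 3.99 ± 0.50 (SE), with 22 and 2 counts in the WT libraries.

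Cd96 encodes a relative of Cd226 that binds Pvr and in mice restrains NK cells. Cd96 (chr16:46035657-46120251, minus strand) measured 1.65 and 1.46 CPM with KO clone 1, 3.03 and 2.40 CPM with KO clone 2, and 0.220 and 0 CPM with WT. The KO mean was 2.13 ± 0.722 CPM (SD, n = 4) and the WT mean 0.110 ± 0.155 CPM (SD, n = 2). The log2 fold change of 3.83 ± 0.76 (SE) rests on 10 and 0 counts in the WT libraries.

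Per kilobase of the longest annotated transcript, KO levels averaged 14.2 CPM per kb for Klrk1, 7.18 for Klrd1, 5.55 for Klrc1, 1.27 for Cd226, 0.977 for Cd96, 0.922 for Ncr1 and 0.566 for Klrb1c. On the same scale the WT averages were 2.30 CPM per kb for Klrk1, 0.728 for Klrd1, 0.397 for Klrc1, 0.266 for Klrb1c, 0.0691 for Cd226, 0.0503 for Cd96 and 0.0441 for Ncr1. Klrk1 led in each of the 6 libraries with both the longest and the shortest transcript. Klrd1 and Klrc1 changed places with the transcript length used (11.3 and 16.3 CPM per kb in KO for the shortest transcripts), so their order is not settled. The same holds for Cd226, Cd96 and Ncr1 in KO libraries, whose order differed between libraries. Klrb1c was last of the 7 in 3 of the 4 KO libraries with the longest transcript, and 4th and 3rd in WT mouse 1 and WT mouse 2.

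The clones were compared with WT in a fit of 3 groups, and both comparisons share the WT libraries. Log2 fold changes of KO clone 1 over WT were 2.47 ± 0.23 for Klrk1, 3.48 ± 0.54 for Klrc1, 2.74 ± 0.42 for Klrd1, 0.84 ± 0.44 for Klrb1c, 3.20 ± 0.93 for Ncr1, 3.90 ± 0.55 for Cd226 and 3.36 ± 0.75 for Cd96 (SE). Log2 fold changes of KO clone 2 over WT were 2.77 ± 0.24 for Klrk1, 3.85 ± 0.55 for Klrc1, 3.58 ± 0.43 for Klrd1, 1.33 ± 0.44 for Klrb1c, 4.33 ± 0.92 for Ncr1, 4.07 ± 0.55 for Cd226 and 4.17 ± 0.76 for Cd96 (SE). None of the 7 passed the threshold in either clone, where 0.00643% of all genes passed as higher. DESeq2 called 5 of the 7 in clone 1, with 1.37% of all genes higher, and 6 of the 7 in clone 2, with 2.08% higher. Without a filter beyond 1 count the calls were 5 in clone 1 (0.492% of all genes higher) and 6 in clone 2 (0.804%), and Klrk1 passed in clone 2 with RLE factors or with Rn45s removed (0.0514% each). Between the clones the 7 log2 fold changes were all positive, from 0.17 ± 0.45 for Cd226 to 1.12 ± 0.71 for Ncr1 (SE), and none passed in edgeR or DESeq2 (0% of all genes passed in edgeR). In 5 of the 7 genes, all but Klrc1 and Cd226, both clone 2 libraries were above both clone 1 libraries, an order that 21.8% of all genes showed. Leaving out clone 2 mouse 1 turned the log2 difference of Cd226 between clones to -0.23.

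**Figure D2:**
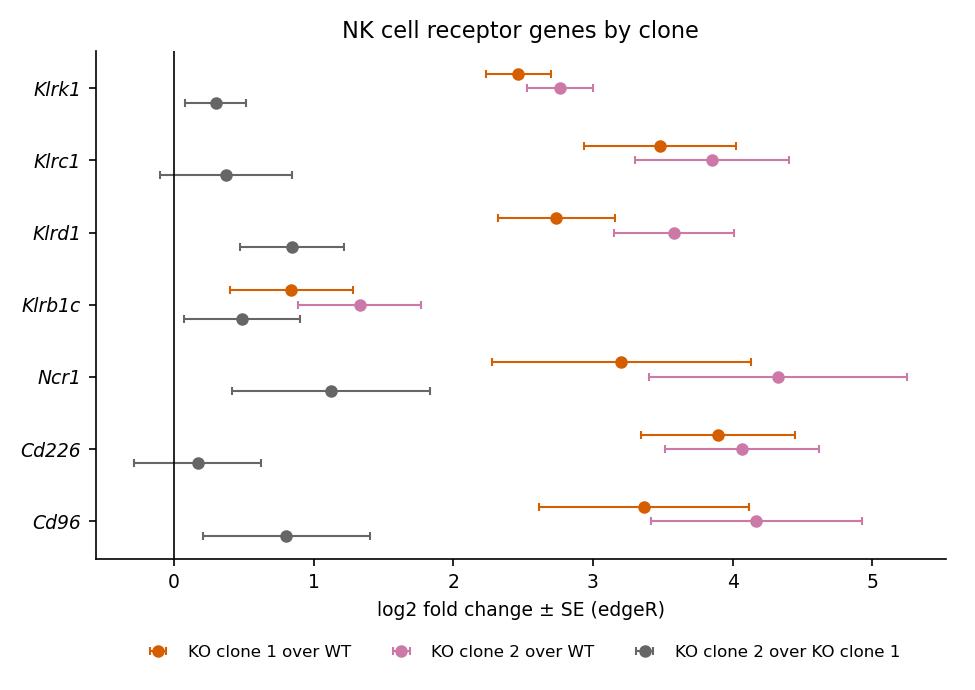
Log2 fold change of each receptor gene (x axis) for KO clone 1 over WT, KO clone 2 over WT and KO clone 2 over KO clone 1, with bars of 1 SE from edgeR's fit of 3 groups. Against WT the 7 genes run from 0.84 to 3.90 in clone 1 and from 1.33 to 4.33 in clone 2, while the difference between clones runs from 0.17 to 1.12.

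Summed over the 7 genes, the receptors reached 72.2 and 55.5 CPM with KO clone 1, 92.1 and 74.4 CPM with KO clone 2, and 10.7 and 9.22 CPM with WT. The profiles of the 7 over the 6 libraries were compared by the root mean square difference of log2(CPM + 0.5) after each gene's mean was subtracted. Klrc1 and Cd226 were the most alike at 0.223, and Klrc1 and Klrb1c the least alike at 1.21. Klrk1 and Klrd1 differed by 0.262 and Klrd1 and Cd96 by 0.245.

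By the same measure, 12221 tested genes with a mean of at least 1 CPM were searched for the profiles nearest to each receptor over the 6 libraries. Predicted genes with Gm or Rik symbols were left out beforehand, and the receptors themselves were not ranked. Nearest to Klrk1 was Pdcd1, which encodes the inhibitory receptor PD-1 of activated lymphocytes, at 0.0352. Pdcd1 measured 8.09 and 6.35 CPM with KO clone 1, 9.38 and 8.34 CPM with KO clone 2, and 0.900 and 0.894 CPM with WT. The interferon-induced GTPase Tgtp1 followed at 0.0667, and Gimap4, a GTPase of lymphocytes, at 0.143. Nearest to Klrc1 were Cd3g, which encodes part of the CD3 complex of T cells, at 0.186, the T cell inhibitory receptor Ctla4 at 0.377 and the chemokine Ccl22 at 0.382. Cd226 also had Cd3g as its nearest profile, at 0.263, with Tgtp1 at 0.285 and Pdcd1 at 0.296. Klrd1 had Ccl22 at 0.192, Gimap4 at 0.224 and Tgtp1 at 0.229. Cd96 had the chemokine receptor Ccr7 at 0.116, Sirpb1a at 0.147 and Enpp5 at 0.184, and Ncr1 had Gimap9 at 0.260, Tlr11 at 0.272 and the T cell adaptor Sh2d2a at 0.301. Klrb1c stood apart from the other members here, with the signalling suppressor Socs2 at 0.0727, Marcks at 0.0774 and Ahrr at 0.0795, genes with small differences like its own. All of these values share libraries and depth and say nothing of shared control.

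The 250 bases before the RefSeq start of 5 receptors are shown because these genes were all higher together. Windows of Klrd1 and Cd226 are not shown here. The sequences are RefSeq windows on GRCm38.p6, written 5′ to 3′ on the gene's own strand. Capitals mark matches, on either strand, to the core of RUNX factors (TGTGGT, or ACCACA on the other strand), of T-box factors such as Eomes and Tbx21 (GTGTGA), of ETS factors (AGGAAG) and of interferon-activated STAT factors (TTCNNNGAA).
Klrk1, chr6:129623865-129624114, minus strand: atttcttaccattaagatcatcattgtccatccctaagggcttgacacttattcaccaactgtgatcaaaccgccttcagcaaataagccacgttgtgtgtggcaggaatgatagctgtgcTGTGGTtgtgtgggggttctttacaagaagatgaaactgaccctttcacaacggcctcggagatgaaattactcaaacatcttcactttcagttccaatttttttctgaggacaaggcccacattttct
Klrc1, chr6:129678974-129679223, minus strand: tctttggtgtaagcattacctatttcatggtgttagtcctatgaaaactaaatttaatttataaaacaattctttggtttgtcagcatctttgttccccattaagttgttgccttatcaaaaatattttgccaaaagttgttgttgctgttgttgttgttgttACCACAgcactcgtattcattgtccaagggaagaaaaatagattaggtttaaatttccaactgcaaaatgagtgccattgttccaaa
Klrb1c, chr6:128788642-128788891, minus strand: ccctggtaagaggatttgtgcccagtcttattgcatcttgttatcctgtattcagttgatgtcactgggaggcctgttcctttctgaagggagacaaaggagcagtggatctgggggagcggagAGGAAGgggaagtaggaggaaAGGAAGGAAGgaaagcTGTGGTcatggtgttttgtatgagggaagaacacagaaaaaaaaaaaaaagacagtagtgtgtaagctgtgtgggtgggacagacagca
Ncr1, chr7:4337474-4337723, plus strand: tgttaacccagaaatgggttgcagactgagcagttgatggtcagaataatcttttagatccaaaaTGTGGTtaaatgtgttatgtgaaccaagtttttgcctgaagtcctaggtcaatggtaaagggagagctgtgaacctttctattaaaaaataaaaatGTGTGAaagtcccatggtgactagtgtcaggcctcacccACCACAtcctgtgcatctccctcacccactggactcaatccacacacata
Cd96, chr16:46120249-46120498, minus strand: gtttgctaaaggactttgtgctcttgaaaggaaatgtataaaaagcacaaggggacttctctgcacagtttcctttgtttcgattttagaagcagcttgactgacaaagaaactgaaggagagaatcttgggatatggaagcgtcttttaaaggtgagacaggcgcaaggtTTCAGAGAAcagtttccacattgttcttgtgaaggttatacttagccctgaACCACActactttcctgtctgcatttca

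The motif letters were chosen after the Klrk1 window had been seen, so its match was fixed by the choice and the counts are descriptions from which nothing is read. The letters TGTGGT stand in each of the 5 windows, and 14.04% of the 32817 RefSeq promoter windows of the same 250 bases hold them. The first base of the match lay 129 bases before the start for Klrk1, 87 for Klrc1, 89 for Klrb1c, 28 for Cd96, and 185 and 50 for the 2 matches of Ncr1. The T-box letters were found in the Ncr1 window alone of the 5, and in 12.3% of all windows. The ETS letters were found in the Klrb1c window alone, with 3 matches of which 2 overlap each other, and in 29.5% of all windows. The STAT letters were found in the Cd96 window alone and in 7.01% of all windows. The Klrb1c window lies inside the longer GENCODE gene model, whose start is further upstream. A match of letters is not a site of binding, and no factor was measured here.

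The partners of the receptors were read from lists of genes chosen with earlier results of these data known. Of the other NK lectin genes, 18 of 23 were tested, 16 had a positive log2 fold change of KO over WT and 2 a negative one, and none passed the threshold in either direction in edgeR's quasi-likelihood test, where 9 had an unadjusted p under 0.05, as did 6.25% of all genes in the higher direction. Their median log2 fold change was 2.05, against 0.00 over all genes, and DESeq2 called 6 of them higher, against 2.31% of all genes. Klri2, a lectin that pairs with Klre1 on NK cells, came nearest with an adjusted p of 0.0563 and a log2 fold change of 2.95 ± 0.43 (SE). Klri2 measured 2.54 and 1.85 CPM with KO clone 1, 3.51 and 2.57 CPM with KO clone 2, and 0.329 and 0.344 CPM with WT. Klrg1, an inhibitory receptor of mature NK and effector T cells, measured 2.23 and 1.82 CPM with KO clone 1, 2.21 and 1.66 CPM with KO clone 2, and 0.198 and 0 CPM with WT. The Ly49 genes Klra9 and Klra2 differed widely in level. Klra9 had 0.443 to 1.18 CPM in KO libraries and 0.0220 and 0 CPM in WT libraries, a single WT count. Klra2 had 203 to 300 CPM in KO libraries and 127 and 73.9 CPM in WT libraries (log2 fold change 1.34 ± 0.29, SE, adjusted p = 0.150). Klrb1b, with a log2 fold change of -0.14 ± 0.30, and Klrg2, with -0.15 ± 0.24 (SE), were the 2 with negative values. Reads of the closely related Ly49 genes may be divided between them, so single members are uncertain.

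Of 20 adaptors and signalling genes, 15 had positive log2 fold changes, the median being 0.20, and none passed in either direction. In edgeR 3 had an unadjusted p under 0.05, all higher (6.25% of all genes), and DESeq2 called 3 higher (2.31%). The adaptor of NKG2D, Hcst, measured 3.22 and 2.89 CPM with KO clone 1, 3.89 and 4.30 CPM with KO clone 2, and 2.22 and 4.06 CPM with WT, so the groups overlapped (log2 fold change 0.21 ± 0.34, SE, adjusted p = 0.736). The ratio of Klrk1 to Hcst in CPM was 10.9 to 13.9 in KO libraries and 3.27 and 1.83 in WT libraries. Tyrobp, an adaptor that macrophages also use, measured 373 and 369 CPM with KO clone 1, 412 and 429 CPM with KO clone 2, and 315 and 290 CPM with WT (log2 fold change 0.39 ± 0.17, SE, adjusted p = 0.368). The kinase Zap70, which acts below the T cell receptor and NK receptors, measured 6.71 and 3.67 CPM with KO clone 1, 5.80 and 4.47 CPM with KO clone 2, and 0.703 and 0.894 CPM with WT. This gave a log2 fold change of 2.72 ± 0.38 (SE, adjusted p = 0.0561). Cd247, the zeta chain of the T cell receptor and of NK receptors such as NKp46, had 2.84 to 5.09 CPM in KO libraries and 0.439 and 1.17 CPM in WT libraries (log2 fold change 2.42 ± 0.50, SE, adjusted p = 0.137).

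Of the NKG2D ligands 6 of 8 were tested, 3 had a positive and 3 a negative log2 fold change, the median was 0.08, and none passed or had an unadjusted p under 0.05. Ulbp1, a ligand of NKG2D, measured 27.2 and 35.1 CPM with KO clone 1, 41.2 and 43.6 CPM with KO clone 2, and 36.5 and 13.9 CPM with WT. Its WT libraries lay on either side of the KO clone 1 libraries, and the log2 fold change was 0.54 ± 0.38 (SE). Without WT mouse 2 all 6 tested ligands had negative values, with a median of -0.47, and without WT mouse 1 the median was 1.59 and 3 were called higher, as were 22.3% of all genes in that setting. The near-identical Raet1 genes are uncertain individually, and Raet1d was at 0 in WT mouse 2 alone, against 16.5 CPM in WT mouse 1 and 8.20 to 12.1 CPM in KO libraries.

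Of the nectin ligands and their receptors 8 of 9 were tested, with 5 positive and 3 negative log2 fold changes, a median of 0.05, none past the threshold and none at an unadjusted p under 0.05. Pvr, the shared ligand of Cd226, Cd96 and Tigit, measured 40.3 and 39.5 CPM with KO clone 1, 28.3 and 30.5 CPM with KO clone 2, and 35.1 and 29.0 CPM with WT (log2 fold change 0.11 ± 0.22, SE, adjusted p = 0.778). Nectin2, listed under its older symbol Pvrl2, had 8.78 to 11.3 CPM in KO libraries and 9.36 and 17.1 CPM in WT libraries (log2 fold change -0.38 ± 0.27, SE, adjusted p = 0.478). Tigit, the inhibitory receptor that competes with Cd226 for Pvr, measured 6.01 and 4.84 CPM with KO clone 1, 5.67 and 4.69 CPM with KO clone 2, and 4.41 and 6.19 CPM with WT. Its log2 fold change was 0.01 ± 0.25 (SE, adjusted p = 0.986). The ratio of Cd226 to Tigit in CPM was 0.940 to 1.33 in KO libraries and 0.109 and 0.0222 in WT libraries. Without WT mouse 1 the list median was -0.26, with 1 of 8 called higher and 2 lower (22.3% and 16.4% of all genes in that setting), and without WT mouse 2 it was 0.22 with none called.

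All 7 tested genes of the list of lectin ligands and MHC class I had positive log2 fold changes, the median being 0.92, and none passed. In edgeR 3 had an unadjusted p under 0.05, all higher (6.25% of all genes), and DESeq2 called 2 higher (2.31%). H2-T23, whose product is the ligand of the Klrc1 and Klrd1 pair, measured 456 and 352 CPM with KO clone 1, 406 and 382 CPM with KO clone 2, and 166 and 423 CPM with WT, so WT mouse 2 lay among the KO libraries (log2 fold change 0.44 ± 0.35, SE, adjusted p = 0.515). Clec2d, a lectin ligand of the Klrb1 family, had 48.3 to 71.2 CPM in KO libraries and 31.6 and 22.98 CPM in WT libraries (log2 fold change 1.10 ± 0.23, SE, adjusted p = 0.141). Clec2i, a relative of Clec2d, had 5.04 to 6.46 CPM in KO libraries and 1.69 and 0.482 CPM in WT libraries (log2 fold change 2.26 ± 0.46, SE, adjusted p = 0.135). B2m, the light chain of MHC class I, had 308 CPM in WT mouse 2, against 2725 CPM in WT mouse 1 and 3873 to 4519 CPM in KO libraries.

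Of 20 other NK surface genes, 18 had positive log2 fold changes, the median being 0.93, and none passed. In edgeR 11 had an unadjusted p under 0.05, all higher (6.25% of all genes), and DESeq2 called 6 higher (2.31%). Il2rb, the receptor chain shared by interleukins 2 and 15, measured 33.6 and 18.3 CPM with KO clone 1, 39.0 and 29.6 CPM with KO clone 2, and 3.29 and 8.39 CPM with WT (log2 fold change 2.40 ± 0.47, SE, adjusted p = 0.119). Of the cytokines that act on NK cells 6 of 8 were tested, 5 with positive log2 fold changes, the median being 1.17, and none past the threshold. In edgeR 4 had an unadjusted p under 0.05, all higher (6.25% of all genes), and DESeq2 called 3 higher (2.31%). Il12b, which encodes a chain of interleukin 12, had 4.11 to 6.89 CPM in KO libraries and 1.41 and 1.58 CPM in WT libraries (log2 fold change 1.79 ± 0.33, SE, adjusted p = 0.101). Il15ra, which presents interleukin 15 to NK cells, had 20.5 to 24.8 CPM in KO libraries and 12.5 and 8.94 CPM in WT libraries (log2 fold change 1.04 ± 0.22, SE, adjusted p = 0.140). The partner lists rest on both WT libraries. Without WT mouse 1, 9 lectins (list median 4.83, from fitted values where many WT counts are 0), 5 adaptors, 3 lectin ligands, 10 surface genes and 4 cytokines were called higher and 2 adaptors lower, in a setting where 22.3% of all genes were called higher. Without WT mouse 2 no gene of these 5 lists was called, in a setting where 0.116% of all genes were called higher.

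**Figure D3:**
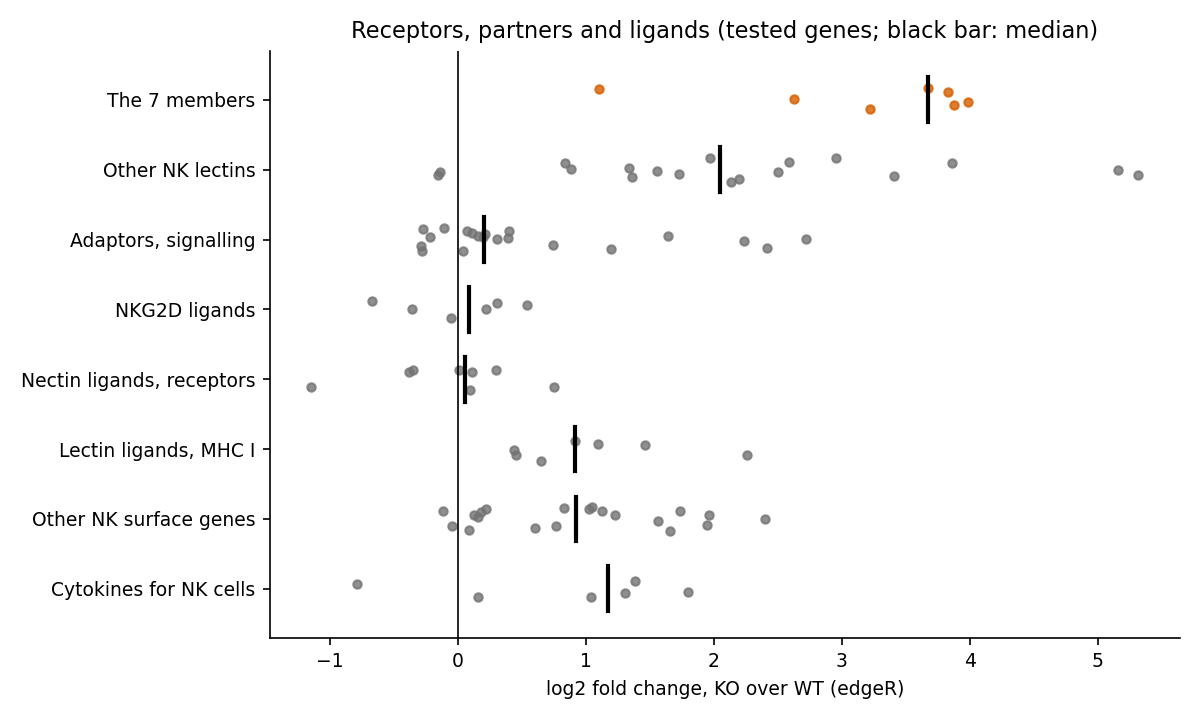
Log2 fold change of KO over WT (x axis, edgeR) for the 7 receptor genes in orange and for the tested genes of 7 partner lists in grey, 1 point per gene, with the list median as a black bar. The medians are 3.68 for the receptors, 2.05 for other NK lectins, 0.20 for adaptors, 0.08 for NKG2D ligands, 0.05 for nectin genes, 0.92 for lectin ligands, 0.93 for other NK surface genes and 1.17 for cytokines.

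Marker lists of lymphocytes were read beside the receptors. The 16 T cell markers in the table summed to 133 and 85.8 CPM with KO clone 1, 122 and 97.1 CPM with KO clone 2, and 26.6 and 46.4 CPM with WT. All 16 had a positive log2 fold change of KO over WT, 13 of 16 had every KO library above both WT libraries, as had 12.9% of all genes, and their median was 1.82. Cd3g and Cd2 rose in KO, the T cell markers that passed edgeR's quasi-likelihood test. Cd3g measured 11.4 and 7.42 CPM with KO clone 1, 14.9 and 11.7 CPM with KO clone 2, and 0.922 and 0.619 CPM with WT (log2 fold change 3.82 ± 0.39, SE, adjusted p = 0.0281). Cd2, an adhesion molecule of T and NK cells, had 7.55 to 11.2 CPM in KO libraries and 1.56 and 1.10 CPM in WT libraries (log2 fold change 2.70 ± 0.31, SE, adjusted p = 0.0327). Other chains of the CD3 complex differed less, with log2 fold changes of 0.62 ± 0.25 for Cd3d and 0.58 ± 1.30 for Cd3e (SE). Cd3e had 0.443 to 2.84 CPM in KO libraries and 0.0220 and 1.86 CPM in WT libraries, so the groups overlapped. Lef1 and Tcf7 had log2 fold changes of 0.15 and 0.16. Without WT mouse 2, 1 T cell marker passed (0.116% of all genes higher), and without WT mouse 1, 7 passed (22.3% of all genes higher). Leaving out a KO library left 1 when it was KO clone 1 mouse 2, and none otherwise.

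The 17 NK markers, of which 6 also stand in a partner list, summed to 246 and 167 CPM with KO clone 1, 198 and 200 CPM with KO clone 2, and 64.2 and 122 CPM with WT. Of these, 16 had positive log2 fold changes, the median being 2.04, 12 of 17 had every KO library above both WT libraries (12.9% of all genes), and none passed the threshold. At an unadjusted p under 0.05 there were 11 (6.25% of all genes higher), DESeq2 called 9 (2.31%), 10 were called without WT mouse 1 (22.3%) and 0 without WT mouse 2 (0.116%). The transcription factor Nfil3, which macrophages also express, made up 44.2 and 80.1 CPM of the WT sums. Eomes, a transcription factor of NK and T cells, had 3.02 to 4.53 CPM in KO libraries and 1.74 and 3.10 CPM in WT libraries. Gzmb, a cytotoxic protease of both cell types, had 19.5 to 59.4 CPM in KO libraries and 2.33 and 4.47 CPM in WT libraries. Klra4, Klra8, Klre1 and Itga2, markers of the NK lineage, were at 0 in WT mouse 2, as were Ncr1 and Cd96, and none of the 4 was at 0 elsewhere.

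The receptor sum was 54.2% to 76.7% of the T cell marker sum in KO libraries, against 40.4% and 19.9% in WT libraries, and 29.4% to 46.5% of the NK marker sum in KO libraries, against 16.7% and 7.54% in WT libraries. The separation in the NK share rests on Nfil3. With Nfil3 left out, a choice made after the values were seen, the receptor sum was 37.1% and 61.2% of the NK marker sum with KO clone 1, 63.7% and 61.5% with KO clone 2, and 53.7% and 21.8% with WT, so WT mouse 1 lay above KO clone 1 mouse 1. Klrk1 over Cd8a, a chain of the CD8 co-receptor, was 2.32 to 3.36 in KO libraries and 3.08 and 1.83 in WT libraries, so these ranges overlapped. Klrk1 over Cd3g was 3.55 to 4.89 in KO libraries and 7.86 and 12.0 in WT libraries, so it was lower in KO libraries without overlap. That direction depended on the marker chosen. Cd3g had the largest log2 fold change of the listed T cell markers, 3.82, against 2.63 for Klrk1 and 0.62 for Cd3d. Relative to Cd3d, another chain of the CD3 complex, Klrk1 was therefore higher in KO. The receptor sum was 0.492% to 0.701% of the macrophage marker sum in KO libraries, and 0.102% and 0.0683% in WT libraries.

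Other cell types were also present at low levels. Neutrophil markers summed to 53.6 to 71.8 CPM in KO libraries and 38.5 and 38.9 CPM in WT libraries, dendritic cell markers to 26.5 to 41.5 CPM in KO libraries and 19.6 and 30.2 CPM in WT libraries, and B cell markers to 8.44 to 13.6 CPM in KO libraries and 5.89 and 3.92 CPM in WT libraries. Of the 6 neutrophil markers 5 had positive log2 fold changes and none passed the threshold. Their median of 2.36 was above those of the T cell and NK markers (1.82 and 2.04), but it rests on genes near the floor. Ly6g, S100a8, S100a9 and Retnlg were no higher than 0.994 CPM in any library. With a filter of 5 CPM in 2 libraries the order reversed. The medians were then 0.16 for the 2 neutrophil markers left, 1.94 for T cell markers and 2.16 for NK markers. In 4 of the 6 every KO library was above both WT libraries, as in 12.9% of all genes. DESeq2 called 3 higher (2.31% of all genes). Cxcr2 was lower in KO, and Csf3r made up most of the sum. The median was 0.49 for dendritic cell markers and 0.91 for the 2 tested B cell markers. Epithelial markers, nearly all Cdh1, summed to 11.1 to 12.8 CPM in KO libraries and 15.6 and 44.1 CPM in WT libraries. Markers of innate-like T cells and innate lymphoid cells, most of them Il1rl1 and Il7r, summed to 153 to 209 CPM in KO libraries and 160.2 and 100.2 CPM in WT libraries, and none of the 5 tested had every KO library above both WT libraries. Zbtb16, the transcription factor of NKT cells, had 1.70 to 3.10 CPM in KO libraries and 3.34 and 5.43 CPM in WT libraries. The part of T cells, NK cells or any of these other cells in the receptor levels was not tested.

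**Figure D4:**
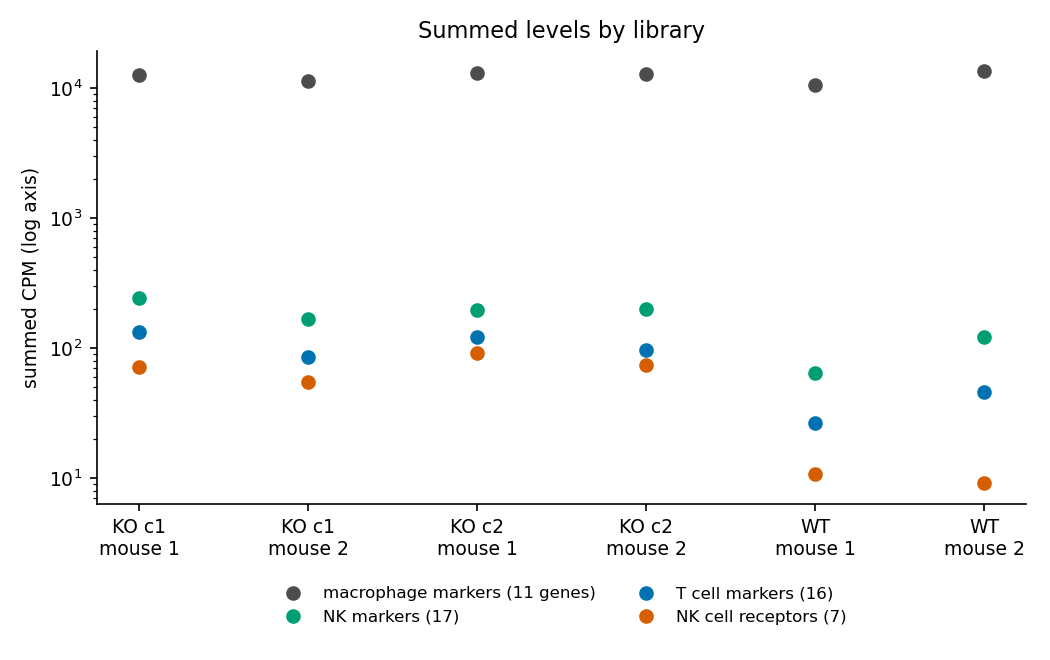
Summed CPM (y axis, log scale) of 11 macrophage markers, 17 NK markers, 16 T cell markers and the 7 NK cell receptors in each library, KO clone 1 (c1) and clone 2 (c2) at the left and WT at the right. The receptor sum is 55.5 to 92.1 CPM in the 4 KO libraries and 10.7 and 9.22 CPM in WT, while the macrophage sum of WT mouse 2 is the highest of the 6 and that of WT mouse 1 the lowest.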

How the data were processed

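RNA was measured in 6 libraries of sorted tumour macrophages, 1 per mouse, built from total RNA with a TruSeq kit after depletion of ribosomal RNA, per the labels' protocols. The authors deposited a table of estimated counts, 1 row per gene symbol, in whole numbers that are not scaled for depth. Salmon 0.7.2 and mm10 are named, without a role, in the submitters' processing notes, while for the transcript set, the summing to genes and the use of strand nothing is given in the sources used here.

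Groups follow the labels. The receptors and all lists were chosen with earlier results of these data known. The main test was the quasi-likelihood F test of edgeR 4.0.16 under R 4.3.3, after filterByExpr (minimum count 10, minimum total 15) and TMM scaling, with Benjamini-Hochberg adjustment over 15560 genes and a threshold of 0.05. KO against WT was fitted on 2 genotype levels (biological coefficient of variation 0.297), and the clones on 3 groups. The SE is the log2 fold change over the square root of F. CPM, Poisson intervals and ratios were computed from the deposited counts with Python 3.11.15. Libraries of the same group were no copies of each other (chi-square per degree of freedom 80.5 to 860). The labels name separate mice, so p-values of the fit on 3 groups measure the spread between mice. In the fit on 2 genotype levels the difference between the clones counts as spread too, and mice of both clones are pooled as KO. The fits were tested on simulated data first. Positions come from GENCODE M21 (GRCm38) and promoter windows from RefSeq on GRCm38.p6. Named genes were the 7 receptors, up to 4 genes per direction with the smallest p in each partner list, Hcst, Tyrobp, Pvr, Nectin2, Tigit and H2-T23, and the 3 nearest profiles of each receptor. Klrc2, Klrc3, B2m, Xkr8 and single markers were named after their values were seen. Alternatives were RLE factors, DESeq2 1.42.0, other filters, removal of Rn45s, the mouse number as a block, a fit of 3 groups for KO against WT, and leaving out each library.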

Additional observations from a re-analysis of the deposited data

Results flagged for a closer look

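Among 52 receptor, partner and related genes, 3 had a KO library far from the other 3 by Dixon's ratio, the gap to the nearest library over the range of the 4 KO libraries, above the 95% critical value. Chance gives such a gap in about 1 group in 20, so 3 of 52 is near that rate. Pvrl1, the older symbol of Nectin1, was highest in KO clone 1 mouse 1 with a ratio of 0.944 (7.25 CPM there and 3.80 to 3.99 CPM in the other KO libraries, against 1.84 and 19.5 CPM in WT). Pvrl3, the older symbol of Nectin3, was lowest in KO clone 1 mouse 1 with a ratio of 0.830 (18.7 CPM there and 27.0 to 28.7 CPM in the other KO libraries, against 21.8 and 7.98 CPM in WT). Slamf7, an NK and macrophage receptor, was highest in KO clone 1 mouse 1 with a ratio of 0.877 (185 CPM there and 107 to 116 CPM in the other KO libraries, against 61.6 and 58.4 CPM in WT). None of the 7 receptors met this criterion.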

How the results depend on the processing

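Log2 fold changes of the 7 receptors against WT were positive under every alternative that could test them. Their ranges for KO over WT were 2.53 to 2.72 for Klrk1, 3.21 to 4.72 for Klrc1, 2.92 to 3.77 for Klrd1, 0.95 to 1.26 for Klrb1c, 3.34 to 8.60 for Ncr1, 3.53 to 5.34 for Cd226 and 3.24 to 9.23 for Cd96. The upper ends for Ncr1 and Cd96 come without WT mouse 1, where WT is at 0, and are fitted values and not bounds. A filter of 5 CPM in 2 libraries left out Klrb1c, Ncr1 and Cd96.

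How many receptors passed in KO against WT, 2 in the result reported, depended on the setting. DESeq2 called 6 (all but Klrb1c, with 2.31% of all genes called higher), and no filter called 5 (0.479%). The 5 CPM filter called Klrk1 (0.128%), and the block called 3 (0.09%). Without WT mouse 1 there were 6 and without WT mouse 2 only Klrk1. Leaving out a KO library left 0 calls, or Klrk1 when KO clone 1 mouse 2 was the one left out, and the mean of 3 groups left 0. For the clones against WT, the median log2 fold change of the receptors was 2.67 in clone 1 and 3.39 in clone 2 without WT mouse 2. Without WT mouse 1 it was 4.53 in clone 1 and 4.90 in clone 2. Each of these fits rests on a single WT library.

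Counts over all genes were 21 for KO against WT, 1 for each clone against WT and 0 between clones (2122, 1104, 1756 and 502 at an unadjusted p under 0.05). In that order, DESeq2 called 499, 271, 465 and 117, and no filter 111, 123, 229 and 53. RLE factors gave 9 and removal of Rn45s gave 8 for clone 2 against WT. The 5 CPM filter gave 0 for each clone against WT, and the mean of 3 groups 1 for KO against WT. Leaving out a library gave 1 to 6024 for KO against WT, 0 to 5594 for clone 1, 0 to 6466 for clone 2 and 0 to 83 between clones, with the highest count against WT without WT mouse 1 and 19, 45 and 175 without WT mouse 2. With 1 WT library left, it is assumed to vary like the KO libraries. The causes were not tested. Among fold changes of single receptors and partner list values, 593 stayed within their spread or count and 81 moved. Of the single receptors, the Cd226 difference between clones alone changed sign. Some partner list medians changed sign too. That of the nectin genes for KO over WT was 0.05 in the result reported and -0.04 with the 5 CPM filter. Leaving Nfil3 out of the NK markers, added after seeing the data, gave a mean receptor share of 55.9% in KO and 37.8% in WT, against 36.6% and 12.1% with it.

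Mouse numbers recur across the 3 groups. Deviations of same-numbered libraries correlated at -0.245 for WT and clone 1, 0.0522 for WT and clone 2 and 0.217 between clones. With so few libraries a group, these values cannot decide whether the mouse number marks a shared batch. With the mouse number as a replicate block the counts were 15, 0, 0 and 0.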
